A study of Mus musculus with 4 samples.

Results

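The homeobox transcription factors of tumor-initiating hepatocytes were compared between a control library and a library labelled shH19 in its title and H19 knockdown in its genotype. Members were chosen by a rule on gene symbols, from the Hox, sine oculis, Lhx, Pax, Dlx, Msx, Meis, Pbx, Irx, Nkx, Prrx, En, Pitx, Cux, Satb, Zeb, Zfhx, Pknox, Emx and Barx families. The rule was set with earlier results of these data known, and it gave 42 of the 16211 gene rows. Of these, 41 are protein-coding genes and 1, Dlx1as, is a noncoding RNA opposite Dlx1. The antisense row Dlx4os, with 28 and 15 reads, was left out by the rule. The cells came from C57BL/6 mice, and both groups are tumor-initiating hepatocytes, which the labels abbreviate as TICs. The control carried a control short hairpin RNA (shcont in the labels) and the other group a hairpin against the long noncoding RNA H19 (shH19). Age, passage, hairpin sequence and promoter are not given in the labels. There was 1 mRNA and 1 small RNA library for each group, so no difference below has a replicate check and no p-value was computed.

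Homeobox genes encode transcription factors that bind DNA through the homeodomain, a fold of a few helices whose last helix reads the DNA. The HOX genes lie in clusters and specify position along the body axis, and proteins of the TALE class, such as PBX and MEIS, bind DNA beside them as partners. The family also holds tissue-specific regulators and the zinc finger factors ZEB1 and ZEB2, which repress epithelial genes. In the liver, homeobox factors are best known from the development of the organ and its bile ducts. Some members lack a complete homeodomain: Pax9 has none, and Pax2 and Pax8 keep part of it.

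Gene rows summed to 33578868 reads for the control and 34061172 for the library labelled shH19, and miRNA arms to 7105897 and 10483889. The targeted gene H19 had 43 and 40 reads, a ratio of 0.931 with a 95% counting interval of 0.589 to 1.46, so the label was not borne out by its target, and every direction below refers to the label. Of 13 hepatocyte markers 10 were listed, at 1258 and 1057 CPM (scaled counts-per-million) in sum. Most of that sum was Apob, with 37279 and 30259 reads, while Alb, albumin, had 129 and 88, and Tat, Cps1 and Cyp3a11 had no row. The 8 progenitor and bile duct markers were all listed, at 3756 and 4050 CPM, with Spp1 and Krt19 the most counted. Of the mesenchymal markers 11 of 11 were listed, at 2284 and 2714 CPM. Of these 6 had enough reads to be compared, and 5 of the 6 lay above a log2 ratio of 0, against 51.9% of all genes compared. For stellate cells and fibroblasts 2 of 10 markers were listed (73 and 56 reads in sum), for endothelium 2 of 6 (72 and 73) and for lymphocytes 1 of 5 (22 and 17). For macrophages 4 of 6 were listed, at 103 and 77.5 CPM, nearly all Cd14 (3189 and 2417 reads). Lyz2 had 132 and 53 reads, a log2 ratio of -1.30 and at least 2-fold lower, Csf1r had 34 and 14, and Cd68 had 118 and 140. In such bulk samples fewer cells of a type and less RNA per cell cannot be told apart. The part of these markers in the homeobox values was not tested.

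Few members of the classical HOX clusters were among the rows. RefSeq (GRCm38.p6) names 120 protein-coding genes that meet the symbol rule, and 41 of them (34.2%) had a row, against 57.0% of all protein-coding genes. Of 39 HOX genes 3 had a row, Hoxb9 and Hoxb13 among them. No gene of the Hoxc or Hoxd cluster was among the rows analysed here, and neither were the Pitx or Emx genes. All 3 Meis genes, all 4 Pbx genes and both genes each of the Cux, Satb and Zeb families had a row. So did all 3 Zfhx genes. The lowest sum of reads in any row was 21, and genes without a row were not analysed here.

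Levels were compared between genes as CPM divided by the length of the longest coding transcript in kilobases. On this scale Cux1, a CUT-domain repressor linked to cell cycle progression, was among the most abundant members, at 22.7 under the control label and 29.2 under the shH19 label. Other levels were 16.1 and 15.6 for Meis3, 10.7 and 12.8 for Pbx2, and 8.06 and 8.94 for Msx2. Zeb1 stood at 6.98 and 7.31, Meis2 at 5.12 and 5.66, and Zeb2 at 5.01 and 5.94. Cux1, Meis3, Pbx2, Msx2 and Zeb1 kept this order in both libraries. Below them Pbx3 (4.77 and 6.42) and Zeb2 lay above Meis2 in the library labelled shH19 and below it in the control. With 1 library per group it is not known which of these neighbours differ beyond the spread between cultures. Hoxb13 was at 2.51 and 3.87. Among the lowest were En1, at 0.181 and 0.760, and Cux2, at 0.0525 and 0.0787.

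**Figure D1:**
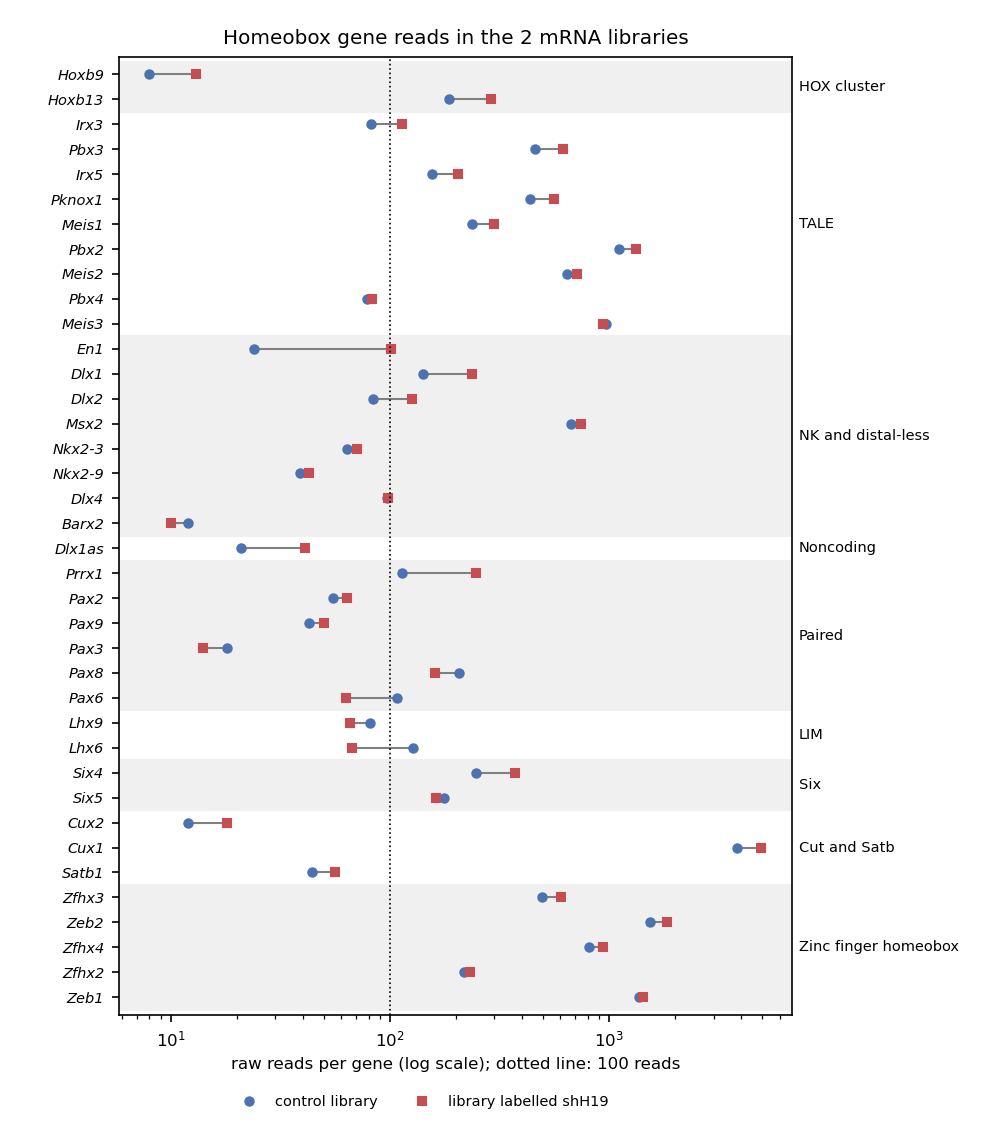
Raw reads (log axis) of 38 of the 42 homeobox genes in the control library (circles) and the library labelled shH19 (squares), ordered by class, with a dotted line at 100 reads. Squares lie to the right of circles in most rows; the widest gaps are those of En1 (24 and 101 reads) and Prrx1 (114 and 247), and Lhx6 (128 and 67) and Pax6 (108 and 63) run the other way.

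Most measured homeobox genes had more scaled reads under the H19 hairpin label. The ratio of scaled counts was taken for each gene, with 1 count added, and a gene was compared when it had at least 100 reads in 1 library. Of the 28 members that met this minimum 22 lay above a log2 ratio of 0 and 6 below. Among all 11412 genes that met it 51.9% lay above 0. The median log2 ratio was 0.27 over the members and 0.01 over all genes. Summed over all 42 members, the control had 545 CPM and the library labelled shH19 had 649. Cux1 was the member with most reads, 3836 in the control.

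At the limit of 2-fold, En1 and Prrx1 were higher and 0 members lower, where 0.202% of all genes were higher and 0.105% lower. At 1.5-fold 5 members were higher (En1, Prrx1, Dlx1, Hoxb13 and Six4) and 2 lower (Lhx6 and Pax6), where 1.31% and 1.39% of all genes were. Of the 28 members compared, 5 met the minimum through 1 library only: En1, Dlx2 and Irx3 where they were high in the library labelled shH19, and Lhx6 and Pax6 where they were high in the control. With a minimum on the mean of both libraries instead, chosen after seeing the data, 24 members were compared and 20 lay above 0. The share of all genes above 0 was not computed at this minimum. In the ranges of depth between 100 and 10000 mean reads it ran from 45.4% to 55.2%. Past 2-fold the minimum on the mean left Prrx1 as the 1 higher member (0.160% of all genes) and 0 lower members (0.0356%). Past 1.5-fold it left 4 higher (1.15%) and 0 lower (1.08%). Six4, with a ratio at the 1.5-fold limit, fell below it under total-count scaling, with 5 counts added and with chromosome medians subtracted, which leaves 4 higher in each case. The counting interval lay above a ratio of 1 for 18 of the 28 members (64.3%) and below it for 4 (14.3%). Over all genes these shares were 28.0% and 24.1%. The interval covers counting error alone. Among genes of 1000 to 10000 mean reads the log2 ratios had an SD of 0.170, against 0.043 from counting, so an interval that leaves out 1 is common in these libraries.

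The same direction prevailed in each of 4 ranges of depth. Of members with a mean of 20 to 100 reads 11 of 14 lay above 0, against 41.6% of all genes of that depth. Of those with 100 to 300 reads 8 of 11 did, against 45.4%. With 300 to 1000 reads it was 7 of 8, against 49.6%, and with 1000 to 10000 reads 5 of 5, against 55.2%. The other 4 members had fewer than 20 reads on average. Counted by library rather than by mean, the 14 members under the minimum of 100 reads had 8 to 98 reads in a library. Of these 14, 11 lay above 0, their median was 0.16, and the interval of 1, Dlx1as, left out a ratio of 1.

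**Figure D2:**
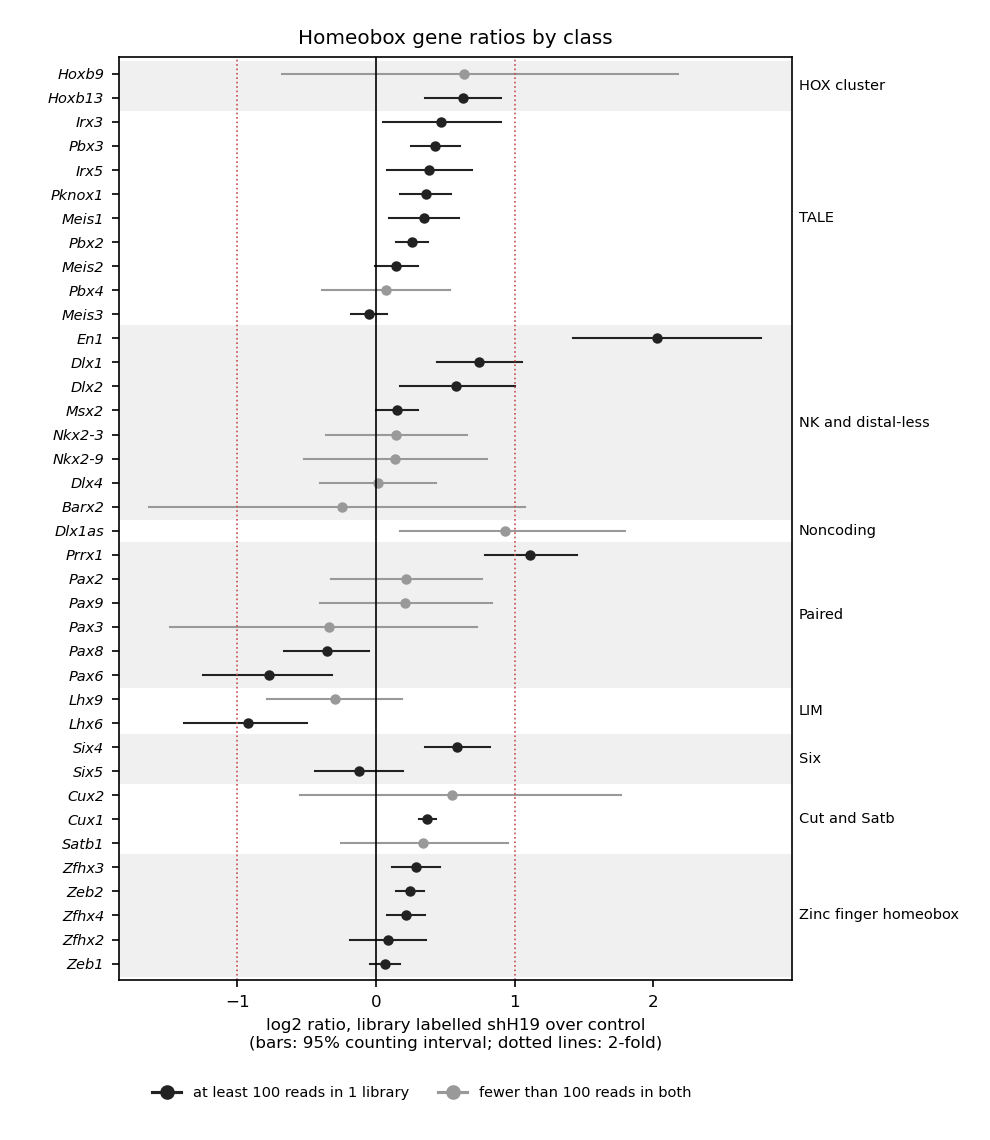
Ratio (log2, library labelled shH19 against control) of 38 of the 42 homeobox genes, by class, with 95% counting intervals as bars and dotted lines at 2-fold; genes under 100 reads in both libraries are grey. En1 (2.03) and Prrx1 (1.11) lie beyond the upper line, Lhx6 (-0.93) and Pax6 (-0.77) are the lowest, and the TALE and zinc finger homeobox genes lie close together between -0.05 and 0.47.

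En1, a homeodomain repressor known from the patterning of the midbrain and limb, had 24 control reads and 101 reads in the library labelled shH19. Its ratio was 4.08 (2.67 to 6.86), the highest of the 11412 genes compared, which it entered by 101 reads in the library where it was high. The central 95% of genes with a mean of 20 to 100 reads spanned log2 ratios of -1.05 to 1.00, and En1 was at 2.03. It was the only member whose counting interval lay wholly beyond 2-fold. Prrx1, a paired-related factor of limb and craniofacial mesenchyme, had 114 and 247 reads, a ratio of 2.15 (1.73 to 2.73). Its log2 ratio of 1.11 lay above the range of -0.69 to 0.71 that held the central 95% of genes with 100 to 300 reads. In the same library the mesenchymal marker list had a median log2 ratio of 0.26, with S100a4 at 255 and 390 reads, Vim at 31409 and 37546 and Snai2 at 115 and 105. Among those under the minimum Twist1 had 58 and 92 reads and Acta2 had 21 and 10.

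The sequences just upstream of a RefSeq start of En1 and of Prrx1, the members past 2-fold, are shown because they differ in their content of CG dinucleotides, which many developmental promoters hold in number. Both are from RefSeq (GRCm38.p6), 250 bases each, 5′ to 3′ on the gene's strand, with CG in capitals. The En1 window, chr1:120602237-120602486 on the plus strand, holds 19 CG dinucleotides. The Prrx1 window, chr1:163313651-163313900 on the minus strand, holds 4, and it contains the letters TAATTA, a core motif that many homeodomains bind. It lies upstream of an internal start, inside the RefSeq span of Prrx1, whose outer 5′ end is at 163315145. The En1 window instead abuts the start of the En1 span, at 120602487. The 2 CG counts thus come from unlike positions and do not describe Prrx1 promoters as a whole.
En1: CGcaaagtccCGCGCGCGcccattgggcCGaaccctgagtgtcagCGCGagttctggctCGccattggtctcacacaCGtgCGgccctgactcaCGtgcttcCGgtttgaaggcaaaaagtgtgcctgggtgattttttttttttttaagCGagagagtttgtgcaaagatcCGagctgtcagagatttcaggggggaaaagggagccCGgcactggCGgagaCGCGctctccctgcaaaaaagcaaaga
Prrx1: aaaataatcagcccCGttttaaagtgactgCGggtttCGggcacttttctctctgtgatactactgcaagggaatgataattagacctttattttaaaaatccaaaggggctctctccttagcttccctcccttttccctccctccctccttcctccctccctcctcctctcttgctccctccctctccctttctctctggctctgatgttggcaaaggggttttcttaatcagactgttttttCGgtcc
The full window of 300 bases runs 50 bases past the start. In it the motif TAATTA (the same on both strands) was found in 2 of 41 member promoters (4.88%). The share was 5.29% over all 32851 promoters and 2.39% over the promoters of genes with at least 100 reads. The 41 promoters belong to 27 of the 42 members that the RefSeq table holds. Their median number of CG dinucleotides was 16, against 7 over all promoters and 21 over the promoters of genes with at least 100 reads. Among members it ran from 3 at a start of Satb1 to 48 at a start of Cux2. These matches describe letters and are not evidence of binding.

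The distal-less genes Dlx1 and Dlx2 lie side by side on chromosome 2, with the noncoding Dlx1as overlapping Dlx1. They are known from forebrain and jaw development. Dlx1 had 142 and 238 reads, a ratio of 1.67 (1.35 to 2.08). Dlx2 had 84 and 126 reads, a ratio of 1.49 (1.13 to 2.00). Dlx1as had 21 and 41 reads, a ratio of 1.91 (1.13 to 3.47). All 3 were thus higher in the library labelled shH19. Dlx1as overlaps Dlx1, and since strand use in counting is not stated their reads cannot be told apart there. Dlx4, on chromosome 11, had 97 and 98 reads. Msx2, a BMP-responsive repressor of bone and skin development, had 669 and 743 reads, a ratio of 1.11 with an interval of 0.998 to 1.23 that holds 1. The other NK-type members were counted too rarely to compare: Nkx2-3 had 64 and 71 reads, Nkx2-9 had 39 and 43, and Barx2 had 12 and 10.

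Of the HOX genes, Hoxb13, the last gene of its cluster and a factor of prostate and hindgut, had 187 and 289 reads, a ratio of 1.54 (1.28 to 1.87). It was thus higher in the library labelled shH19, inside the central 95% range of genes with 100 to 300 reads. Hoxb9, 77.0 kb away, had 8 and 13 reads, too few to compare.

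In the TALE class the ratios were small and mostly of 1 sign. Of its 9 members with enough reads 8 lay above 0, against 51.9% of all genes compared. In this class 0 reached 1.5-fold, and the median log2 ratio was 0.34 with an SD of 0.16. With the TGIF and other TALE genes outside the symbol rule, 11 of 12 lay above 0 and the median was 0.28. Pbx2 had 1105 and 1324 reads, a log2 ratio of 0.26, and Pbx3 had 459 and 618, at a ratio of 1.34 (1.19 to 1.52). Both were thus slightly higher in the library labelled shH19, while the rarer Pbx4 had 79 and 83 reads. Among their partners Meis1, known from blood stem cells and leukemia, had 236 and 300 reads, a ratio of 1.27 (1.07 to 1.51). Meis2 had 643 and 712 (1.11, interval 0.993 to 1.23). Meis3 had 971 and 940 (0.967, interval 0.883 to 1.06). The MEIS genes therefore spread from slightly below to above 1. Pknox1, a further PBX partner, had 436 and 560 reads, a ratio of 1.28 (1.13 to 1.46). The Iroquois genes Irx3 and Irx5, patterning factors that are neighbours on chromosome 8, had 82 and 114 reads (1.38, interval 1.04 to 1.87) and 156 and 204 reads (1.30, interval 1.06 to 1.62).

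The members with the lowest ratios were a LIM and a paired-class gene. Lhx6, a LIM-homeodomain factor of interneurons and tooth mesenchyme, had 128 and 67 reads, a ratio of 0.527 (0.383 to 0.708). Lhx9, a gonad and limb factor, had 81 and 66. Pax6, the eye and pancreatic islet regulator, had 108 and 63 reads, a ratio of 0.587 (0.420 to 0.802). Pax8, a thyroid and kidney factor, had 206 and 161 reads, a ratio of 0.782 (0.631 to 0.964). The log2 ratios of Lhx6 and Pax6, -0.93 and -0.77, lay inside the central 95% range of genes with 20 to 100 mean reads. Both genes lay toward the upper end of that depth. Their ratios were below -0.69, the lower bound for genes with 100 to 300 reads. They ranked 19 and 56 from the bottom of the 11412 genes compared, which both entered by their control reads. Of the other PAX genes Pax2 had 55 and 64 reads, Pax9 had 43 and 50 and Pax3 had 18 and 14, and each of their intervals held 1.

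Six4 and Six5, sine oculis relatives, act with EYA and DACH proteins in muscle, kidney and sensory organs. Six4 had 248 and 373 reads, a log2 ratio of 0.59 with an interval of the ratio of 1.28 to 1.77. It lies on chromosome 12. Six5, on chromosome 7, had 176 and 162 reads (0.920, interval 0.738 to 1.14). The 357 compared genes of chromosome 12 had their median at 0.28 on the log2 scale. With this subtracted Six4 went from 0.59 to 0.31, while Pax9 and Nkx2-9, also on chromosome 12, changed sign to -0.06 and -0.14. The part of the chromosome in these values was not tested. Eya4, a coactivator of these factors, had 175 and 272 reads (log2 ratio 0.63) and Eya1 had 311 and 373 (0.26). The most counted EYA gene, Eya3, had 1228 and 1182 (-0.06). Under the minimum Eya2 had 25 and 27 reads, Dach1 had 20 and 26 and Dach2 had 47 and 26. Eya3 and these rarer genes were named with their values already known. Ssbp2 had 486 and 618 (0.34) and the corepressor Tle1 had 1154 and 1018 (-0.18). These genes come from a mixed list of cofactors, which holds Eya, Dach and Tle genes as well as Ldb, Lmo and Ssbp genes. The list is thus not specific to partners of the sine oculis and PAX factors. Of its 12 genes with enough reads 9 lay above 0, against 51.9% of all genes compared. Their median was 0.02, against 0.01 over all genes.

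Among the CUT and SATB genes Cux1 had 3836 and 4955 reads, a ratio of 1.29 (1.24 to 1.35). Its log2 ratio of 0.37 lay just above the upper end, 0.36, of the central 95% range of genes with 1000 to 10000 reads. It was thus a small difference on a large count. The chromatin organizer Satb1 had 44 and 56 reads, and Cux2 had 12 and 18. Both intervals held 1.

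**Figure D3:**
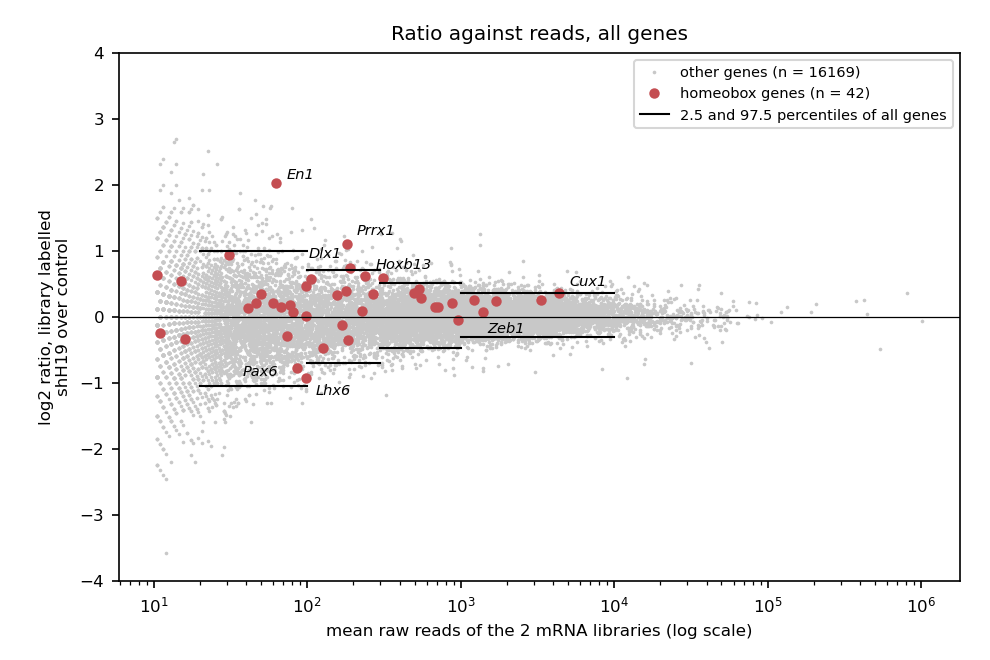
Ratio (log2, library labelled shH19 against control) plotted over mean raw reads (log axis) for 42 homeobox genes (large points) and 16169 other genes (small points), with black lines around the central 95% of all genes in 4 ranges of reads. En1, Prrx1, Dlx1 and Cux1 are among the labelled points above the upper lines, and no homeobox gene in these ranges lies below the lower lines.

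The zinc finger homeobox genes lay slightly above 0 in 5 of 5 cases, where 51.9% of all genes compared lay above 0. ZEB1 and ZEB2 repress E-cadherin and other epithelial genes. Zeb1 had 1369 and 1436 reads, a ratio of 1.05 with an interval of 0.972 to 1.13 that holds 1. Zeb2 had 1544 and 1832 reads, a ratio of 1.19 (1.11 to 1.27). Zfhx3, also called ATBF1, had 495 and 606 reads (1.22, interval 1.08 to 1.38) and Zfhx4 had 809 and 939 (1.16, interval 1.05 to 1.28). Zfhx2 had 219 and 233, with an interval of 0.880 to 1.28. Of 14 epithelial genes listed as repressed by ZEB proteins 11 lay below 0, against 48.1% of all genes compared. Their median log2 ratio was -0.14, against 0.01 over all genes. Of the 14, 0 reached 1.5-fold in either direction. Among them Patj, a polarity protein, had 463 and 321 reads (-0.53), the protease St14 had 172 and 125 (-0.46), the tight junction gene Marveld2 had 566 and 461 (-0.30) and Krt19 had 29919 and 39984 (0.42). Cdh1, E-cadherin, named with its value already known, had 6174 and 5384 reads (-0.20). The E-box CAGGTG, read on both strands, was found in 76.2% of 21 promoter windows of 13 of these epithelial genes, against 20.2% of all promoters and 9 of the 41 homeobox promoters. The genes were listed as ZEB-repressed and ZEB proteins bind such E-boxes, so this share is no separate evidence. A gene with several starts gave several windows.

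MicroRNAs of the miR-200 family, which target ZEB mRNAs, were read from the small RNA libraries. The symbol rule uses no small RNA values, though members and lists were chosen with earlier results of these data known. The mature sequences are printed with the seed, bases 2 to 8, in capitals, to show the 2 seed groups of the family. They are from RefSeq (GRCm38.p6), at chr4:156055685-156055706, chr4:156053916-156053937 and chr4:156054911-156054932, all on the minus strand.
miR-200b-3p: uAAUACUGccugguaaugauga
miR-429-3p: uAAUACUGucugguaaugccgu
miR-200a-3p: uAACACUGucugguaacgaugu
The reverse complements of these seeds, CAGTATT and CAGTGTT, occur 5 and 4 times in the 3′ UTR of the longest Zeb2 transcript and equally often in that of Zeb1 (GENCODE vM1). At least 3 copies of CAGTATT were found in 0.457% of the UTRs of 9842 genes with enough reads, and at least 3 of CAGTGTT in 1.02%. Besides Zeb1 and Zeb2, Pax6 held 3 copies of CAGTATT. The following stretches of the Zeb2 UTR, on chromosome 2, show sites of both kinds, with the seed match in capitals and its position counted from the first base of the UTR.
Zeb2 site at 393: cgcactaccatacatCAGTATTt
Zeb2 site at 458: cgcactacagtgcatCAGTATTa
Zeb2 site at 209: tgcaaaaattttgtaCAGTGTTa
Reads of miR-200b-3p numbered 429 under the control label and 980 under the shH19 label, or 59.3 and 95.1 CPM, a ratio of 1.60 (1.43 to 1.80). Of all 295 arms with at least 100 reads 2.71% were at least 1.5-fold higher. miR-200a-3p had 111 and 209 reads (1.32, interval 1.04 to 1.68) and miR-429-3p had 343 and 556 (1.14, interval 0.993 to 1.31). All 3 arms come from chromosome 4, where the median mRNA was at -0.17 on the log2 scale. Of the other family members miR-141-3p had 11 and 6 reads, and miR-200c was not analysed here. Under the shH19 label miR-200b-3p was thus higher and Zeb2 higher too, by a smaller ratio, while the interval of Zeb1 held 1.

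MicroRNAs that lie inside the HOX clusters were read although few HOX mRNAs were. They are shown because they come from clusters with few mRNA rows, again from RefSeq (GRCm38.p6) with seeds in capitals. Those of miR-10 lie at chr11:96317186-96317208 and chr2:74726074-74726096, and the 2 copies of miR-196a at chr11:96265187-96265208 and chr15:102973365-102973386, all on the plus strand.
miR-10a-5p: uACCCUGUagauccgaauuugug
miR-10b-5p: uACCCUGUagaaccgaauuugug
miR-196a-5p: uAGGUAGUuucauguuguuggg
The miR-10 arms share a seed. miR-10b-5p, whose hairpin lies within the RefSeq spans of Hoxd3 and Hoxd4, had 129835 and 148550 reads, or 17956 and 14418 CPM, a ratio of 0.803 (0.797 to 0.809). No Hoxd mRNA was among the rows. miR-10a-5p, from between Hoxb5 and Hoxb4 within the span of Hoxb3, had 6242 and 5589 reads, a ratio of 0.628 (0.606 to 0.652). Of all arms 5.08% were at least 1.5-fold lower. The mir-196a-2 precursor, 1452 bases from Hoxc10, had 232 and 276 reads on its 5′ arm (0.836, interval 0.699 to 0.999). The mir-196a-1 precursor, between Hoxb13 and Hoxb9, had 173 and 180 (0.732, interval 0.589 to 0.905). Both precursors give the same mature sequence, so their reads cannot be told apart by sequence. These miR-10 and miR-196a arms, 3 mature sequences, were thus lower in the library labelled shH19, as were 46.8% of all 295 arms, while the mRNA of Hoxb13, on the other side of mir-196a-1, was higher. The rarer arms miR-196b-5p, with 9 and 12 reads, and miR-615-3p, with 23 and 48, were not compared.

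**Figure D4:**
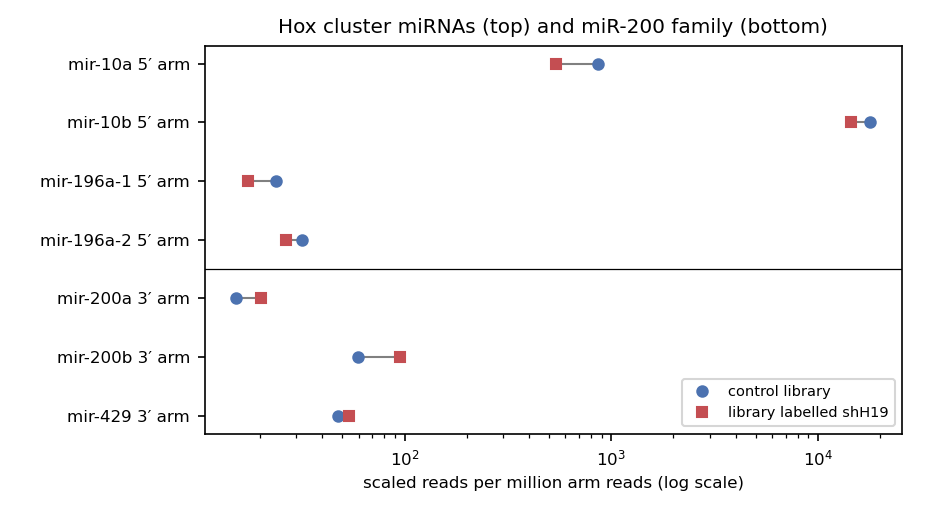
CPM of arm reads (log axis) of miRNA arms with at least 100 reads in 1 library, from the HOX clusters (above the dividing line) and the miR-200 family (below it), in the control small RNA library (circles) and the one labelled shH19 (squares). The squares lie to the left for all 4 HOX cluster arms (mir-10b 17956 and 14418) and to the right for the 3 miR-200 family arms (mir-200b 59.3 and 95.1).

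Regulators of homeobox genes were read in the same libraries. Polycomb complexes silence HOX and other developmental genes through histone marks, and trithorax complexes keep them active. Of the 11 genes of Polycomb repressive complex 2 with enough reads 3 lay above and 8 below 0, with a median log2 ratio of -0.05, where 48.1% of all genes lay below 0. Its core subunit Suz12 had 1682 and 2030 reads (0.27), Phf1 had 408 and 346 (-0.24), Rbbp4 had 5754 and 5041 (-0.19) and Ezh1 had 1046 and 931 (-0.17). Of 18 genes of Polycomb repressive complex 1 9 lay on each side. In it Pcgf1 had 287 and 189 reads (-0.60) and was at least 1.5-fold lower. Cbx2 had 1079 and 1332 (0.30), Kdm2b had 944 and 1140 (0.27) and Yaf2 had 2309 and 1955 (-0.24). Of 22 trithorax and MLL complex genes 18 lay above 0, with a median of 0.06 and 0 beyond 1.5-fold. Over all genes compared 51.9% lay above 0, and 55.2% of those with 1000 to 10000 mean reads did. The methyltransferase Kmt2d had 1495 and 1848 reads (0.30) and the demethylase Kdm6b had 352 and 279 (-0.34). Hcfc1 had 4076 and 4814 (0.24) and Kmt2c had 1172 and 1357 (0.21).

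Retinoic acid, a vitamin A derivative, sets the expression of HOX genes in the embryo. Of 13 genes of its pathway with at least 100 reads in 1 library 7 lay above and 6 below 0. Aldh1a1, which makes retinoic acid, had 19372 and 11857 reads (-0.71) and was the only one of these 13 beyond 1.5-fold. Under the minimum of 100 reads, Aldh1a2, another enzyme of that step, had 19 and 41 reads, and Cyp26c1, which breaks retinoic acid down, had 21 and 9. The retinol receptor Stra6 had 726 and 531 (-0.45) and the retinol dehydrogenase Rdh10 had 9241 and 7242 (-0.35). A list of ZEB corepressors and other genes, among them the coactivators Ep300 and Kat2b, had a median of 0.08 over 11 genes. In it Rcor1 had 959 and 1233 reads (0.36) and the kinase Nuak1 had 569 and 451 (-0.34). Sirt1 had 421 and 494 (0.23) and Smarca4 had 8342 and 9759 (0.22). The mitochondrially encoded genes had a median of 0.35, with 7 of 7 above 0, against 51.9% of all genes compared. The part of this difference in the homeobox values was not tested.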

How the data were processed

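The authors deposited whole-number read counts for each gene symbol of the 2 mRNA libraries. Per the series' design text, trimming was followed by alignment to GRCm38 with STAR 2.5.2b. The submitters' processing notes also name Trimmomatic 0.36. Which counting program, annotation and strand setting made the counts is not given in the sources used here. The deposited small RNA counts come, per the same text, from reads of 15 to 31 nucleotides annotated with miRBase 21. Counts were scaled with edgeR 4.0.16 TMM sizes in R 4.3.3, over all genes or all arms. The log2 ratio has 1 count added to each scaled count. The exact conditional binomial 95% interval covers counting error only and takes reads as independent. PCR copies are not independent molecules, so it can be too narrow. Precision is set by the reads printed beside each ratio. Apostrophes inserted in symbols were removed.

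Chromosomes, miRNAs and promoters are from RefSeq (GRCm38.p6), where 87.2% of symbols and all 42 members were placed. Transcript lengths and 3′ UTRs are from GENCODE vM1, by symbol, for 41 members. All members with at least 100 reads are named, rarer ones as counts, and from each other list up to 4 genes with the largest absolute log2 ratios, though cell type and mitochondrial lists are mostly given as sums or counts. Some genes the rule names are not reported here; they remain in the counts and medians. Rarer members were also named with their reads after these were seen. Members and lists were chosen with earlier results of these data known. The ratios and intervals were run on simulated Poisson counts, where 95.4% of true ratios lay inside their interval. Such counts hold no spread beyond counting, so this checks the computation and not the coverage in real libraries. As alternatives, libraries were scaled by total count, by DESeq2 1.42.0 or by TMM leaving out the 10 genes with most reads. Others were 5 or 0.5 counts added, other minimums, a 1.5-fold limit, intervals beyond 2-fold, the mean, subtraction of chromosome medians and, added after seeing the data, a minimum of 100 on the mean and the 1.5-fold limit under the other settings. Computation used Python 3.11.15, scipy 1.17.1, pandas 2.3.3 and numpy 2.4.6, and plots matplotlib 3.10.9.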

Additional observations from a re-analysis of the deposited data

Results flagged for a closer look

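At the mir-200b precursor 11 reads lay outside both mature arms in the small RNA reads labelled shH19, against 0 in the control, where a count of 0 allows up to 3. These are raw reads, not scaled to depth. The control had fewer arm reads (7105897 against 10483889) and fewer miR-200b-3p reads (429 against 980), so the excess is smaller than the raw counts show. The precursor was picked out because such reads enter no comparison above and exceeded the control.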

How the results depend on the processing

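The members at least 2-fold higher numbered 2, and those lower 0, under other scalings, other added counts, with chromosome medians subtracted, at a minimum of 20 reads and without one. The number higher was 0 at a minimum of 1000 reads, which leaves 5 members, and 1 when the counting interval had to lie wholly beyond 2-fold. A minimum of 100 on the mean of both libraries, added after seeing the data, gave 1 higher and 0 lower of 24 members. At 1.5-fold 5 were higher and 2 lower. There the number higher was 4 under total-count scaling, with 5 counts added, with chromosome medians subtracted and with the minimum on the mean, and 0 at a minimum of 1000 reads. The number lower at 1.5-fold was 0 with the minimum on the mean and 0 at 1000 reads. The median log2 ratio ranged from 0.23 to 0.28 over the alternatives run, against -0.01 to 0.02 over all genes. Of 174 alternative values of 29 named members 173 stayed within their interval and 1, Six4 with its chromosome median subtracted (0.31), moved down. No paired analysis was possible because each group had 1 library per assay. Depth limits the 14 members under 100 reads, and 1 library per group leaves the spread between cultures unknown.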

Other observations

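Homeobox genes of other names were compared as a second list. Of 90 named 30 had a row and 21 had at least 100 reads. Of these 13 lay above a log2 ratio of 0 and 8 below, with a median of 0.03, against 0.27 over the 28 members of the symbol rule and 0.01 over all genes. Hlx, a factor of gut and liver mesenchyme, had 59 and 112 reads, a ratio of 1.88, and was the only one of the 21 beyond 1.5-fold. It met the minimum only through the library labelled shH19, where it was high. Over all genes 1.31% were at least 1.5-fold higher. Shox2, under the minimum, had 18 and 34 reads. Tgif2, a TALE repressor of TGF-beta signalling, had 101 and 124 reads (log2 ratio 0.29), the zinc finger homeobox gene Tshz1 had 421 and 506 (0.26) and the POU factor Pou3f1 had 102 and 78 (-0.38). The difference between the lists was not tested.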
